A study of Mus musculus with 13 samples.

Results

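The let-7 family was followed across normal mouse thymocytes and Notch1-driven T-cell acute lymphoblastic leukaemia (T-ALL), as the 7 mature 5p arms mmu-let-7a-5p, mmu-let-7b-5p, mmu-let-7c-5p, mmu-let-7d-5p, mmu-let-7f-5p, mmu-let-7g-5p and mmu-let-7i-5p, written without their prefix and suffix from here on. They were taken by name as the let-7 5p arms that the arrays detect well, and make up 7 of the 1122 mouse miRNAs on the array. All 7 were above background on all 13 arrays, so no member entered the tests through 1 group alone. Levels come from 1-colour Agilent miRNA arrays of total RNA, with 3 biological replicates for each of 4 primary cell groups. Late-stage (LS) and early-stage (ES) T-ALL cells were CD4+CD8+ cells sorted from spleens of C57BL/6 bone marrow chimeras. Marrow of these chimeras had been transformed with N1ICD, the constitutively active intracellular domain of Notch1, and the labels name neither the promoter that drives it nor the age of the mice. DN cells are CD4-CD8- and DP cells CD4+CD8+ thymocytes, sorted from C57BL/6 thymus with no oncogene named. M295, a cultured T-ALL line from the same strain, has 1 array. Because the leukaemic cells came from spleen and the thymocytes from thymus, the effect of the disease and that of the tissue cannot be told apart wherever leukaemic cells and thymocytes are compared.

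MicroRNAs are short RNAs that guide Argonaute proteins to messenger RNAs, chiefly through the seed, bases 2 to 8 from the 5′ end, and lower the stability and translation of those messages. let-7 miRNAs are scarce in embryonic cells and abundant in most differentiated cells, where they restrain growth genes such as Ras family members, Myc and Hmga2, and their maturation is blocked by the RNA-binding protein Lin28. In mouse thymus they are known to restrain the transcription factor PLZF in natural killer T cells. The sequences are shown because all members carry 1 seed and differ only outside it, so they can share targets and can also bind each other's probes. Capitals mark the seed, and the sequences are those of RefSeq (GRCm38.p6).
let-7a-5p: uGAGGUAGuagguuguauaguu
let-7b-5p: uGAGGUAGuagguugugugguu
let-7c-5p: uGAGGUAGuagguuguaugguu
let-7d-5p: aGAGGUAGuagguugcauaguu
let-7f-5p: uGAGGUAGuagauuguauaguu
let-7g-5p: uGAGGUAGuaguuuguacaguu
let-7i-5p: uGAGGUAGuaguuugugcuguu
Relative to let-7a, with positions counted from 1 at the 5′ end, let-7c differs by A19G, let-7f by G12A, let-7b by A17G and A19G, and let-7d by U1A and U16C. let-7g differs from let-7a by G12U and U18C, and let-7i by G12U, A17G, U18C and A19U. let-7b and let-7c are 1 base apart (G17A), and let-7g and let-7i are 2 bases apart (A17G and A19U). How much of each probe's signal came from a near-identical member was not tested, since no probe sequence was used here.

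The 7 mature arms come from 10 hairpins on 6 chromosomes (GRCm38.p6), and a mature arm encoded by 2 hairpins cannot be traced to either. Mirlet7d, Mirlet7f-1 and Mirlet7a-1 lie together on the minus strand of chromosome 13, with gaps of 1714 and 261 bases between neighbours. Mirlet7c-2 and Mirlet7b are 621 bases apart on chromosome 15, within the long non-coding RNA gene Lncppara. Mirlet7g is a single locus at chr9:106178840-106178927 inside the protein-coding gene Wdr82, and Mirlet7i is a single locus at chr10:122985640-122985724 that overlaps no other annotated gene. Mirlet7a-2 lies in Mir100hg on chromosome 9, Mirlet7c-1 on chromosome 16, and Mirlet7f-2 on chromosome X inside Huwe1, 785 bases from Mir98. The letters GGAG, which Lin28 is known to bind in let-7 precursors, were present on the transcribed strand of 8 of the 10 hairpins (80.0%), against 447 of the 1005 mouse hairpins of the same RefSeq release (44.5%). Such a match is a description of the sequence and not of binding.

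Every value below is a log2 scaled intensity, on which 0 is an array's 75th percentile over the 108 miRNAs above background on all 12 primary arrays. Values of different members sit on different probes, so only values of the same member are compared. The primary arrays had 115 to 244 miRNAs above background. ES 1 had the fewest, and its negative control spots were the noisiest (SD 19.0, and 7.11 or less on each other array). ES 3 stood apart in miR-223-3p, a myeloid marker, which was 2.85 there and at most -4.89 on the other primary arrays. The mature lymphocyte markers were also highest on ES 3. There miR-146a-5p was -2.20 and miR-150-5p -1.85, against at most -5.18 and -2.37 on the other primary arrays. The thymocyte markers miR-181a and miR-181b had summed levels of 0.05 to 0.78 in LS and -1.37 to 0.56 in ES, against -0.02 to 0.21 in DN and 2.25 to 2.38 in DP. The summed level of the erythroid markers miR-451 and miR-144-3p was -3.47 to 0.68 in LS and -5.57 to -1.36 in ES, against -0.41 to 0.02 in DN and -5.91 to -5.19 in DP. The part of other cell types in the let-7 values was not tested. Stromal and liver markers were above background on none of the primary arrays. Endothelial miR-126-3p was above it on 3, epithelial miR-200b-3p on 1 and epithelial miR-200c-3p on 3 of the 12 primary arrays. The other endothelial and epithelial markers (miR-126-5p, miR-200a-3p and miR-205-5p) were above it on none. In sorted bulk cells, a lower level cannot be told apart from fewer cells of a type that carries the miRNA, or from less of it per cell.

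**Figure D1:**
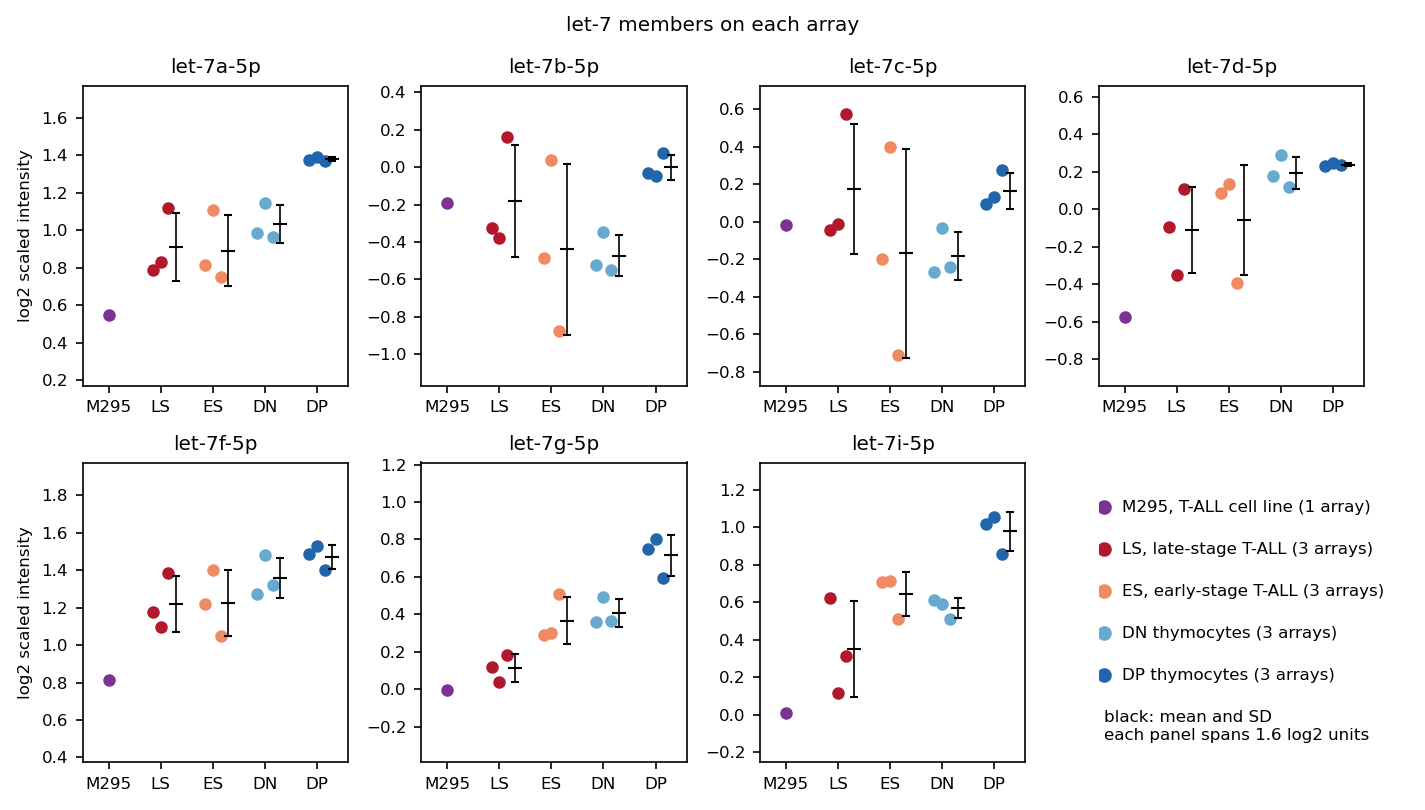
Log2 scaled intensity of each let-7 member on each of the 13 arrays, with the mean and SD of each group of 3 in black; every panel spans the same height, so spreads can be compared and levels between panels cannot. The LS points of let-7g lie between 0.04 and 0.19 and the DP points between 0.59 and 0.80, whereas the LS points of let-7c lie between -0.04 and 0.57 around the DP points.

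Late-stage T-ALL was set against DP thymocytes, the normal cells with the same surface phenotype. let-7i, let-7g and let-7a were lower in LS cells than in DP cells, and let-7c had nearly the same mean in both. let-7g, the member made only from the Wdr82 locus, measured 0.12, 0.04 and 0.19 on LS arrays 1 to 3, against 0.75, 0.80 and 0.59 on DP arrays 1 to 3. let-7i, the product of the solitary chromosome 10 locus, measured 0.62, 0.11 and 0.31 on the LS arrays, against 1.02, 1.05 and 0.86 on the DP arrays. let-7a measured 0.79, 0.83 and 1.12 on the LS arrays, against 1.38, 1.39 and 1.37 on the DP arrays. For all 3 the highest LS array was below the lowest DP array. The log2 fold change was -0.60 ± 0.15 for let-7g (SE, adjusted p = 0.00803 in limma), which is 1.52-fold lower in LS. It was -0.63 ± 0.18 for let-7i (adjusted p = 0.0122 in limma), 1.54-fold lower in LS, and -0.47 ± 0.17 for let-7a (adjusted p = 0.0356 in limma), 1.38-fold lower in LS. The 3 lower calls among 7 members stand beside 26.2% of all 229 tested miRNAs called lower in this comparison, and beside 28 lower calls (25.9%) among the 108 miRNAs above background on all 12 arrays.

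The other 4 members were not called in late-stage cells in the scaling used here. In the authors' deposited value table let-7f was called as well, with a fold change of -0.41 (adjusted p = 0.0356 in limma). let-7d, from the chromosome 13 cluster, measured -0.10, -0.35 and 0.11 in LS, against 0.23, 0.25 and 0.24 in DP, with a log2 difference of -0.35 and a 95% interval of -0.78 to 0.08. let-7f, encoded next to it, averaged 1.22 ± 0.15 in LS and 1.47 ± 0.07 in DP (SD, n = 3 each). These 2 members also did not overlap between LS and DP, which makes 5 of 7, while 78.2% of all tested miRNAs did not overlap in this comparison. let-7b measured -0.33, -0.38 and 0.16 in LS, against -0.03, -0.05 and 0.08 in DP. let-7c measured -0.04, -0.01 and 0.57 in LS, against 0.09, 0.13 and 0.28 in DP. In both of these the LS 3 array was above every DP array and the other LS arrays were below, and the interval of the difference was -0.72 to 0.36 for let-7b and -0.61 to 0.62 for let-7c. The median over the 7 members was -0.35, beside 0.19 over all tested miRNAs.

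The LS calls of let-7g and let-7i held when any 1 of the 12 arrays was left out, with an adjusted p of at most 0.0364 for let-7g and 0.0454 for let-7i in limma. let-7a was no longer called without any single DN or DP array, or without LS 1 or LS 2 (adjusted p up to 0.112 in limma). Within slide 1 the fold change of let-7g was -0.67 and that of let-7i -0.65, and within slide 2 they were -0.51 and -0.64. Slide 1 holds 1 DP array and slide 2 holds 1 LS array, so only the fold changes are given. With the slide as a block, let-7a had an adjusted p of 0.0584 in limma. Blocking on replicate numbers gave let-7a an adjusted p of 0.0585 in limma, so it was not called there either, and gave let-7g and let-7i 0.0214 each in limma.

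**Figure D2:**
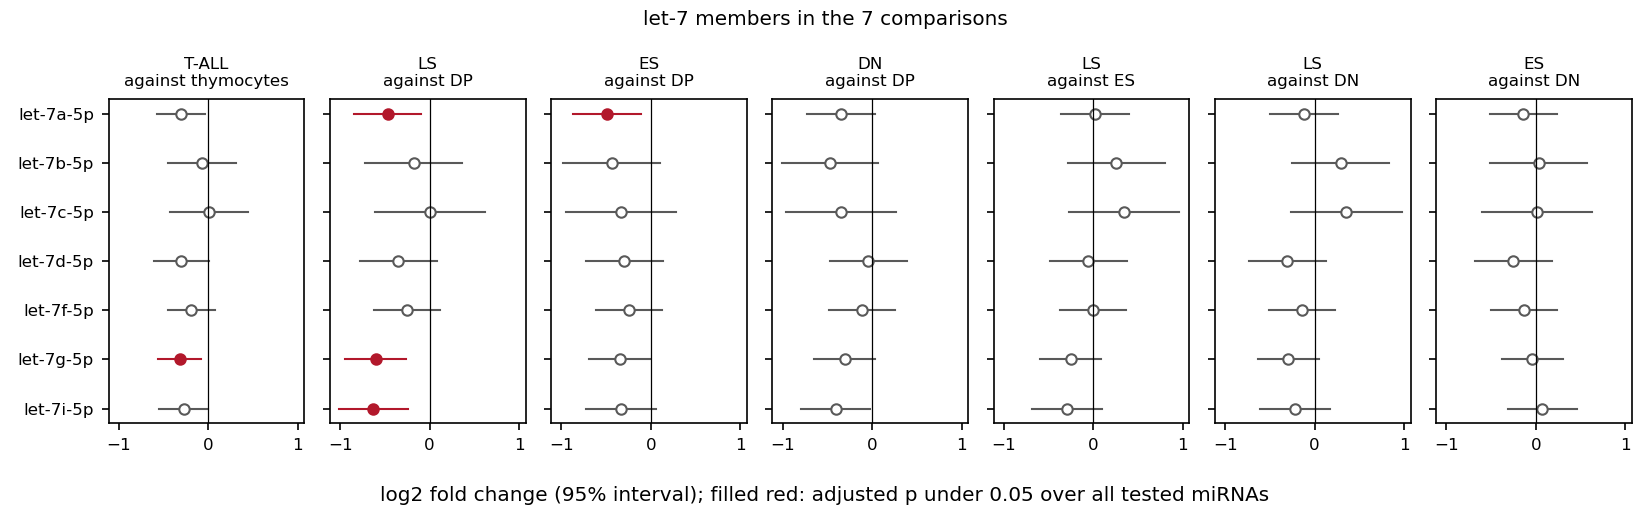
Log2 fold change of each member in each comparison with its 95% interval from the limma fit; filled red points have an adjusted p under 0.05 over all 229 tested miRNAs. Calls are seen for let-7a, let-7g and let-7i in LS against DP, for let-7a in ES against DP and for let-7g in T-ALL against thymocytes.

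Early-stage T-ALL was compared with the same DP cells. let-7a was lower in ES cells, and the other 6 members had negative fold changes that did not pass the test. let-7a measured 0.82, 1.11 and 0.75 on ES arrays 1 to 3, against 1.38, 1.39 and 1.37 on the DP arrays, with a log2 fold change of -0.49 ± 0.17 (SE, adjusted p = 0.0378 in limma), 1.40-fold lower in ES. Among the 7 members 1 was called lower, beside 25.3% of all tested miRNAs. The authors' deposited value table gave a call to let-7f in place of let-7a. There let-7f had a fold change of -0.44 (adjusted p = 0.0326 in limma), and let-7a one of -0.37 (adjusted p = 0.0893 in limma). let-7g measured 0.29, 0.30 and 0.51 in ES, against 0.75, 0.80 and 0.59 in DP, and its adjusted p was 0.0852 in limma. let-7i measured 0.71, 0.71 and 0.51 in ES, against 1.02, 1.05 and 0.86 in DP, and its adjusted p was 0.137 in limma. Together with let-7a and let-7d these members did not overlap between ES and DP, which is 4 of 7, beside 58.1% of all tested miRNAs.

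ES arrays differed most among themselves in let-7b and let-7c. let-7b measured -0.48, 0.04 and -0.87 in ES, against -0.03, -0.05 and 0.08 in DP. let-7c measured -0.20, 0.40 and -0.71 in ES, against 0.09, 0.13 and 0.28 in DP. ES 3, the array with high miR-223-3p, was the lowest of the 12 primary arrays for let-7a, let-7b, let-7c, let-7d and let-7f, and at 0.51 it was the highest T-ALL array for let-7g. The part of myeloid cells in these values was not tested. Without ES 1 and ES 3 together, a setting chosen after seeing the data, the ES fold changes against DP were 0.04 for let-7b and 0.23 for let-7c, in place of -0.44 and -0.34. The let-7a call ended in the same setting (adjusted p = 0.266 in limma), and it also ended without ES 1, any single DN array or any single DP array (adjusted p up to 0.0993 in limma). No member was called in ES against DP with the slide as a block, and within slides the fold change of let-7a was -0.41 on slide 1 and -0.63 on slide 2.

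T-ALL as a whole, with both stages at equal weight, was compared with DN and DP thymocytes at equal weight. let-7g was lower in T-ALL, and 6 of the 7 fold changes were negative. let-7g ranged over 0.04, 0.24 and 0.51 in the 6 T-ALL arrays as lowest, median and highest, against 0.36, 0.54 and 0.80 in the 6 thymocyte arrays. Its log2 fold change was -0.32 ± 0.11 (SE, adjusted p = 0.0288 in limma), 1.25-fold lower in T-ALL. Of the 7 members 1 was called lower, beside 25.8% of all tested miRNAs, and 3 had an unadjusted p under 0.05. let-7a was 0.75, 0.82 and 1.12 in T-ALL, against 0.96, 1.26 and 1.39 in thymocytes, and its adjusted p was 0.0503 in limma. All 7 members overlapped between T-ALL and thymocytes, while 19.7% of all tested miRNAs did not overlap. The median fold change was -0.28 over the members, beside -0.12 over all tested miRNAs. The let-7g call ended without any of DN 1, DN 2, DN 3, DP 2, ES 2, LS 1 or LS 2 (adjusted p up to 0.0730 in limma). With the slide as a block its fold change was -0.29 and its adjusted p 0.0639 in limma, and within slides its fold change was -0.37 on slide 1 and -0.22 on slide 2.

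DN cells are the less mature thymocytes and were compared with DP cells, into which they develop. All 7 members had negative fold changes and none was called. let-7b, let-7i, let-7a, let-7c and let-7g did not overlap between DN and DP, which is 5 of 7, beside 76% of all tested miRNAs. let-7i measured 0.61, 0.59 and 0.51 on DN arrays 1 to 3, against 1.02, 1.05 and 0.86 on the DP arrays, with a log2 fold change of -0.41 ± 0.18 (SE, adjusted p = 0.107 in limma). let-7b measured -0.52, -0.35 and -0.55 in DN, against -0.03, -0.05 and 0.08 in DP, with a log2 fold change of -0.47 ± 0.24 (SE, adjusted p = 0.183 in limma). In both members the DN arrays lay below every DP array, and neither passed the threshold in the fit that shares 1 spread with the T-ALL groups. In the 12-array fit 18.8% of all tested miRNAs were called lower, and 1 member had an unadjusted p under 0.05. With only the DN and DP arrays in the fit, 5 members were called lower in limma, beside 33.6% of all tested miRNAs. The member median was -0.35, beside 0.15 over all tested miRNAs, and let-7d at -0.04 and let-7f at -0.11 lay nearest to 0.

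In the scaling used here, DP arrays were thus the highest group by mean for 6 of the 7 members. The exception was let-7c, whose LS mean of 0.17 ± 0.35 and DP mean of 0.17 ± 0.10 (SD, n = 3 each) did not differ beyond their spread. For let-7d and let-7f the DN and DP arrays overlapped. Scaled over all mouse miRNAs, all 7 members were higher in ES than in DP, so DP was then the highest group for none. The order of the other groups varied by member. For let-7g the means were 0.11 ± 0.07 in LS and 0.37 ± 0.12 in ES, against 0.41 ± 0.08 in DN and 0.72 ± 0.11 in DP (SD, n = 3 each), and the ES and DN means did not differ beyond their spread. For let-7b the means were -0.18 ± 0.30 in LS and -0.44 ± 0.46 in ES, against -0.47 ± 0.11 in DN and 0.00 ± 0.07 in DP (SD, n = 3 each), and LS, ES and DN overlapped.

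No member was called in LS against ES, LS against DN or ES against DN in limma, and none reached an unadjusted p under 0.05 in these 3 comparisons. The shares of all tested miRNAs called in either direction were 2.62% in LS against ES, 33.2% in LS against DN and 6.55% in ES against DN. let-7g was the only member whose LS arrays all lay below the ES arrays, while 11.4% of tested miRNAs did not overlap in that comparison. Its difference was -0.25 with a 95% interval of -0.59 to 0.09. let-7g and let-7d did not overlap between LS and DN, beside 57.6% of tested miRNAs, and no member was free of overlap between ES and DN, beside 36.2%. let-7b and let-7c had positive values in LS against DN, 0.29 with an interval of -0.25 to 0.83 and 0.35 with an interval of -0.26 to 0.97. Over the 7 members and these 3 comparisons the 95% intervals ran from -0.74 at the lowest bound to 0.97 at the highest. Within the scaling used here, a member's change is bounded only by its own interval, such as -0.38 to 0.30 for let-7g in ES against DN. These intervals do not cover a change of scaling. With arrays scaled over all mouse miRNAs, LS against ES was -0.99 for let-7g and -1.03 for let-7i, outside their intervals. The family median there was -0.75 in place of -0.0053, beside -0.38 over all tested miRNAs in place of 0.28, and no member was called. Changes inside a member's own interval could not be told from none.

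The direction of the family in ES against DP depended on how arrays were scaled, and turned only with all mouse miRNAs as the base. Most of that base was not above background, as the primary arrays had 115 to 244 of the 1122 miRNAs above it. Scaled to the 75th percentile over all mouse miRNAs in place of the 108 bright ones, the median over members in ES against DP was 0.20 in place of -0.34, and all 7 members were above 0. In the same setting the median over all tested miRNAs in ES against DP also moved, by 0.51, so the family stood 0.39 below it, against 0.41 below it in the scaling used here. In LS against DP the family median was -0.55 in that setting and stood 0.59 below all tested miRNAs, against 0.54 below in the scaling used here. In DN against DP the family median was -0.05 and stood 0.50 below all tested miRNAs in both settings. Dividing an array by another factor moves all its miRNAs alike, so these gaps change little by construction. Under quantile normalization, which is not of that kind, the family stood 0.23 below all tested miRNAs in LS against DP and 0.04 above them in T-ALL against thymocytes, where it stood 0.15 below in the scaling used here. The authors' deposited table had it 0.35 below in LS against DP and 0.02 below in T-ALL against thymocytes. Under quantile normalization the medians were -0.34 in LS against DP, -0.28 in ES against DP and -0.27 in DN against DP. In the authors' deposited table they were -0.41 in LS against DP, -0.28 in ES against DP and -0.34 in DN against DP. The let-7g fold change in LS against DP had an adjusted p of at most 0.0346 in limma under these 3 scalings. Scaling over all mouse miRNAs ended the LS calls of let-7i (fold change -0.83, adjusted p = 0.0668 in limma) and let-7a (-0.67, adjusted p = 0.126 in limma).

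**Figure D3:**
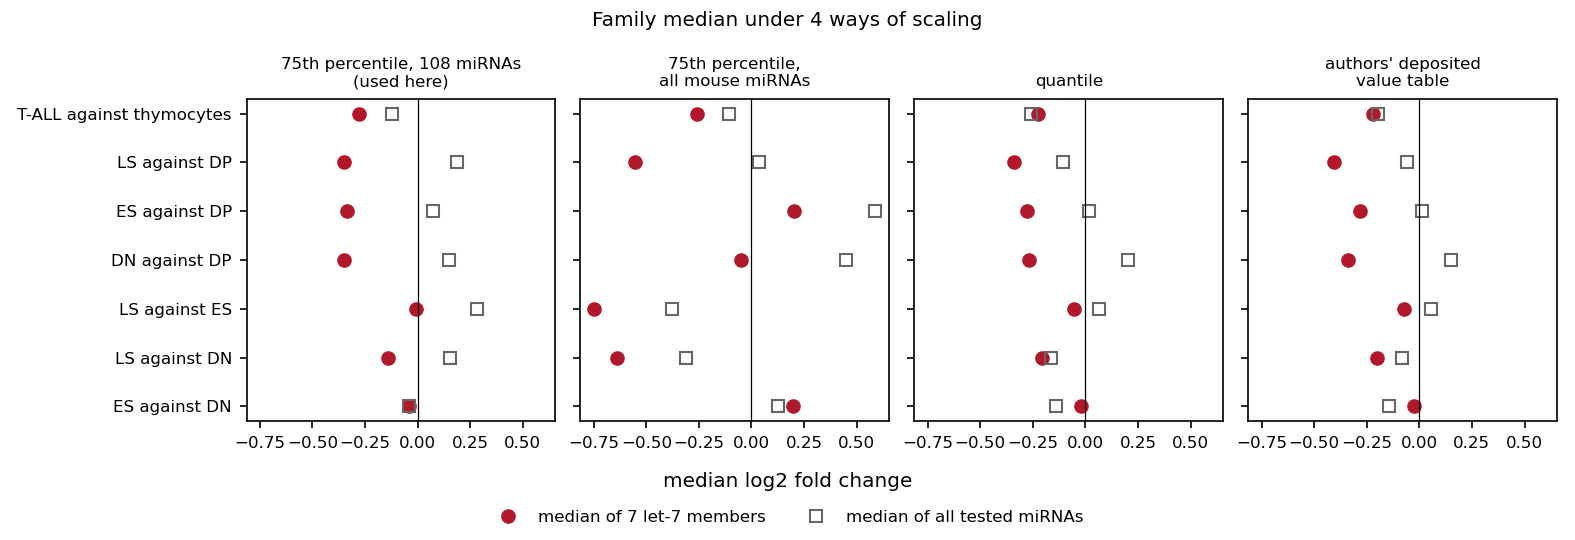
Median log2 fold change of the 7 members (red circles) and of all tested miRNAs (open squares) in each comparison under 4 ways of scaling the arrays. The red circle of ES against DP lies at -0.34 in the first panel and at 0.20 in the second, where the square moves with it.

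Members were among the steadier bright miRNAs in the scaling used here. That scaling divides each array by a percentile of these same bright miRNAs. Members ranked 11 to 35 of 108 in brightness, around that percentile, so a small SD may be partly built in. With all mouse miRNAs as the base, let-7f ran between 8.29 and 9.95, against 1.05 and 1.53 here. Whether members are steadier than other miRNAs in another scaling was not tested. Over the 12 primary arrays the SD ran between 0.16 for let-7f and 0.34 for let-7c, beside a median of 0.55 over the 108 miRNAs above background on all of these arrays, and the 7 members ranked 2 to 22 of 108 when SDs were ordered with the smallest first. Within groups, let-7g had the smallest SD of all 108 miRNAs, 0.10, and let-7c had 0.34, beside a median of 0.35. In this scaling the spread within groups thus differed between members that share a seed, and let-7b and let-7c were the least steady. Each member had 2 probes, and the probes of a member differed in log2 fold change by at most 0.15 in LS against DP and 0.28 in DN against DP. In DN against DP the probes of let-7d were -0.13 and 0.15 and those of let-7f -0.16 and 0.04, so the direction of these 2 members differed by probe.

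Across the 12 primary arrays, let-7b and let-7c ran together with a Pearson r of 0.97, let-7a with let-7f and let-7d with let-7f at 0.91, and let-7g with let-7i at 0.82. let-7c and let-7g were unrelated at -0.06. These correlations describe arrays that share groups and scaling, and are given with no test. After each group's mean was removed, let-7a, let-7b, let-7c, let-7d and let-7f still moved together, with r between 0.74 and 0.99, whereas let-7g had r between -0.27 and 0.14 with every other member. The array ES 3 was the lowest primary array for let-7a, let-7b, let-7c, let-7d and let-7f, and the highest T-ALL array for let-7g. That 1 array therefore lowers the r of let-7g with those members. Whether let-7g stands apart without ES 3 was not tested. let-7b and let-7c are both encoded on chromosome 15 and differ by 1 base, so a shared transcript and shared probe binding cannot be told apart here. let-7c and let-7a are also 1 base apart (A19G) and had r of 0.60 over the arrays and 0.92 within groups. Part of the likeness depended on the scaling: r between let-7c and let-7g was 0.67 with all mouse miRNAs as the base and 0.06 in the authors' deposited table, and r between let-7a and let-7f was 0.97 and 0.72 in these 2 settings.

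**Figure D4:**
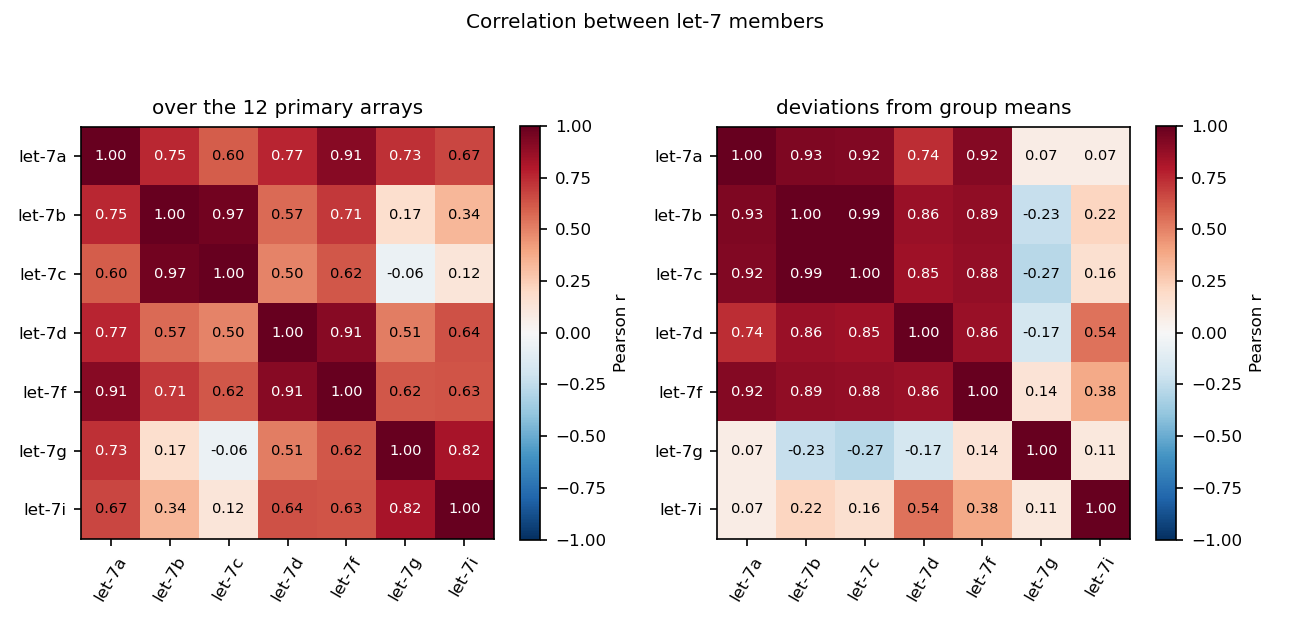
Pearson r between members over the 12 primary arrays (left) and between their deviations from group means (right); colour runs between -1 and 1. The row of let-7g is pale in the right panel, at -0.27 to 0.14, while let-7a, let-7b, let-7c, let-7d and let-7f form a dark block at 0.74 to 0.99.

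A difference between 2 members on 1 array does not change when that array is divided by another scaling factor. The mean of let-7b and let-7c minus the mean of let-7g and let-7i was taken on each array, a pairing chosen after the values had been seen and therefore given with no test; its size depends on the probes and only its change between arrays is read. It was -0.55, -0.27 and 0.12 on LS arrays 1 to 3 and -0.84, -0.29 and -1.30 on ES arrays 1 to 3, against -0.88, -0.73 and -0.83 on the DN arrays and -0.85, -0.89 and -0.55 on the DP arrays. The LS mean was -0.24 ± 0.34 and the ES mean -0.81 ± 0.51, against -0.81 ± 0.07 in DN and -0.76 ± 0.19 in DP (SD, n = 3 each). LS 1 and DP 3 nearly met, at -0.55 each, and the other LS arrays lay above every thymocyte array. The ES arrays were the most spread, with ES 2 beside LS 2 and ES 3 the lowest array of all.

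**Figure D5:**
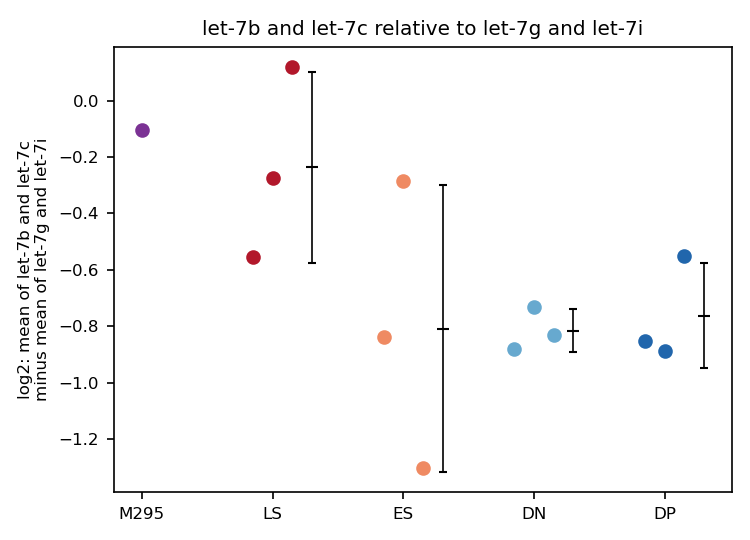
Mean log2 value of let-7b and let-7c minus that of let-7g and let-7i on each array, with the mean and SD of each group of 3 in black. LS 2, LS 3, ES 2 and M295 lie between -0.29 and 0.12, and the 6 thymocyte arrays lie between -0.89 and -0.55.

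The miRNAs whose pattern over the 12 arrays was most like the mean of the centred members were miR-25-3p (r = 0.84), miR-466c-5p (0.82), miR-301a-3p (0.80), miR-669k-5p (0.78) and miR-466j (0.78), among 222 compared. miR-25-3p and miR-301a-3p were above background on all 12 arrays, and the other 3 on only 3 or 4. Least like the members were miR-5121 (r = -0.88), miR-652-5p (-0.87) and miR-3081-5p (-0.83). These values share arrays, groups and scaling.

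The cell line M295 was set beside the 6 primary T-ALL arrays, with no test because it has 1 array. let-7a at 0.55, let-7d at -0.57, let-7f at 0.81, let-7g at 0.00 and let-7i at 0.01 were all below the lowest T-ALL array, and also below the lowest of the 12 primary arrays. The lowest T-ALL arrays were 0.75 for let-7a, -0.39 for let-7d, 1.05 for let-7f, 0.04 for let-7g and 0.11 for let-7i. The distance to the lowest T-ALL array was thus small for let-7g, -0.04, and largest for let-7f, -0.24. let-7b at -0.19 and let-7c at -0.02 lay inside the T-ALL range. With all mouse miRNAs as the base of the scaling 5 members were again below every T-ALL array, and the authors' deposited table had 4 below.

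Other miRNAs with the let-7 seed gave little signal apart from miR-98-5p, encoded beside Mirlet7f-2. They are shown for the bases that set them apart.
let-7e-5p: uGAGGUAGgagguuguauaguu
miR-98-5p: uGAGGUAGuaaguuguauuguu
let-7e differs from let-7a by U9G and miR-98 by G11A and A19U. let-7e-5p and miR-1961 were above background on 0 of 13 arrays. miR-98-5p was above background on all 13 and called in 0 of the 7 comparisons in limma. It measured -3.16, -3.06 and -3.23 in DN, against -3.62, -3.55 and -3.73 in DP, without overlap and with a log2 fold change of 0.48 ± 0.20 (SE, adjusted p = 0.0996 in limma, unadjusted p = 0.0357 in the same limma fit). Its sign was thus opposite to that of the 7 members in DN against DP in the scaling used here, where neither it nor any member was called. For let-7d and let-7f that sign differed between the probes of the member.

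None of the 10 let-7 3p arms, the other strands of the hairpins, was above background on any array. Of 13 miRNAs encoded beside let-7 genes, namely both arms of miR-98, miR-99a, miR-99b, miR-100, miR-125a and miR-125b, 10 were never above background and miR-99b-3p was above it on M295 alone. The 2 tested were miR-98-5p and miR-125a-3p, whose hairpin lies beside Mirlet7e. miR-125a-3p was above background on 3 of 3 LS and 2 of 3 ES arrays, against 0 of 6 thymocyte arrays. It was called higher in T-ALL than in thymocytes (adjusted p = 0.00105 in limma), as were 31.4% of all tested miRNAs. LS was the only group with it above background in all 3 replicates, so it entered the tests through a group where it is high. Its call is therefore no separate support for a difference. Its level was at least 4.25-fold higher in LS than in DP, where each DP array was set to the higher of its own value and its lowest signal above background. let-7e-5p, encoded in the same cluster, stayed below background on these arrays.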

How the data were processed

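RNA of 13 samples was hybridised to 1-colour Agilent miRNA arrays named after miRBase release 18, per the labels. Agilent Feature Extraction 10.7.3.1 read the images, per the file headers. The deposited scanner files hold each spot's background-subtracted intensity, unscaled between arrays. The authors' deposited value table is on the log2 scale, with the same median of 3.29 in all 13 columns, and was used only as an alternative. RMA, MAS5, GCOS and affy appear in the submitters' processing notes, and their role is not given in the sources used here.

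After removal of control and outlier spots, linear means were taken over the spots of a probe and then over the probes of a miRNA (34 to 40 kept spots per member and array; spots of a probe varied by a median of 4.13%). The scale of an array was its 75th percentile among the 108 miRNAs above background on all 12 primary arrays, and scaled values were floored at -7.59 and put on the log2 scale. A miRNA was tested if some group had it above background in all 3 replicates, which left 229, fitted over the 12 primary arrays in limma 3.58.1 (R 4.3.3, with lmFit and eBayes, and the package data.table in version 1.17.8), with 1 mean per group. P-values were adjusted by Benjamini-Hochberg over all 229 and called under 0.05. The fit was tested on simulated data. No spot was saturated, and the number of arrays limits the precision. Slides were read from the scanner files: slide 1 holds 6 primary arrays and M295, slide 2 holds 6. Slide 1 has 1 DN, 1 DP, 2 ES and 2 LS arrays. Slide 2 has 2 DN and 2 DP arrays, with 1 ES array (ES 3) and 1 LS array (LS 3).

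All 7 members were described in every comparison. Other miRNAs were named only from the same seed, the let-7 3p arms, neighbours of let-7 genes, and the 5 most and 3 least like the family. The members, lists and tests were chosen with earlier results of these data known. Alternatives were the scaling, background correction, probe summary, filters, variance trend, slide, replicate block, groups in the fit and each array left out, and 1 added after seeing the data (ES 1 and ES 3 left out together). Same-numbered LS and DP arrays deviated together in 3 of 3 pairs (r between 0.18 and 0.50 over the tested miRNAs), so the fit with the replicate block is given beside LS against DP where it changes a call; the labels state no pairing. RefSeq tables (GRCm38.p6) gave sequences for all 7 members.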

Additional observations from a re-analysis of the deposited data

Results flagged for a closer look

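miR-99b-3p, encoded beside let-7e, was above background on the M295 array, at -6.55 on the log2 scale, and on 0 of the 12 primary arrays. It was singled out because its signal lies outside the arrays that were tested. M295 has 1 array, so the value has no replicate.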

How the results depend on the processing

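The members' calls were few and moved with the settings. Counts are left out where a compared group had 1 array in the setting, as in most comparisons within a slide. The number called in LS against DP, 3 here, was 1 when scaled over all mouse miRNAs and 2 with the slide as a block. It was 4 there with the brightest probe only, in the authors' deposited value table and without ES 1 and ES 3 together. In ES against DP, 1 here, the count was 0 with the slide as a block, under quantile normalization, scaled over all mouse miRNAs and with only ES and DP fitted. In the authors' deposited value table the count was again 1, but let-7f was called there and let-7a was not. The count in ES against DP was 2 with the brightest probe only, with an intensity trend and with no filter on dim miRNAs. In T-ALL against thymocytes, 1 here, it was 0 with the slide as a block, under quantile normalization, scaled over all mouse miRNAs and in the authors' deposited value table. It was 2 there with the median of spots, with normexp and with only miRNAs above background on all 12 arrays, and 4 with the brightest probe only and with an intensity trend. In DN against DP, 0 here, it was 1 within slide 2, in the authors' deposited value table and without ES 1 and ES 3 together, and 5 with only DN and DP fitted. In LS against DN, 0 here, it was 1 with only those groups fitted. Leaving out 1 array at a time gave 0 to 2 calls in T-ALL against thymocytes, 2 to 4 in LS against DP, 0 to 2 in ES against DP, 0 to 1 in DN against DP and 0 in the other comparisons. Unless the setting itself used fewer arrays or miRNAs, the cause was not tested.

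Of 18 same-numbered pairs of arrays, 6 had deviations correlated above 0.1, with r between -0.34 and 0.50. They were 3 of 3 LS and DP pairs, 2 of 3 DN and DP pairs (r = 0.46 and 0.23) and 1 of 3 ES and LS pairs (r = 0.18). With the replicate block, the calls were 2 in LS against DP, 0 in DN against DP, 0 in ES against DP and 0 in T-ALL against thymocytes.

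Of 1372 recomputed fold changes, 88 turned sign, and 86 of these were called in neither fit. An exception was let-7a in ES against DP, called here and not when scaled over all mouse miRNAs (adjusted p = 0.895 in limma). Another was let-7c in ES against DN within slide 2, where ES 3 is the only ES array. Within slide 1, turned values were -0.12 for let-7c in LS against DP, 0.0075 for let-7c in ES against DP and -0.15 for let-7a, -0.13 for let-7b and -0.13 for let-7c in LS against ES. They were also 0.038 for let-7f in ES against DN. Within slide 2, turned values were -0.10 for let-7c in T-ALL against thymocytes, 0.15 for let-7b in LS against DP and 0.50 for let-7d and 0.34 for let-7f in LS against ES. They were also 0.062 for let-7a in LS against DN and -0.42 for let-7b, -0.57 for let-7c, 0.080 for let-7g and -0.041 for let-7i in ES against DN. With the brightest probe only, turned values were -0.077 for let-7c in T-ALL against thymocytes, -0.11 for let-7c in LS against DP and -0.018 for let-7a in LS against ES. They were also -0.013 for let-7b and -0.043 for let-7c in ES against DN. With the median of spots, turned values were -0.0062 for let-7c in ES against DN. With normexp, turned values were -0.0090 for let-7c in LS against DP. Under quantile normalization, turned values were -0.012 for let-7c in T-ALL against thymocytes, -0.0050 for let-7c in LS against DP and -0.33 for let-7a and 0.042 for let-7f in LS against ES. They were also 0.12 for let-7a, -0.14 for let-7b, -0.019 for let-7c and 0.054 for let-7g in ES against DN. Scaled over all mouse miRNAs, turned values were -0.20 for let-7c in LS against DP, 0.049 for let-7a, 0.10 for let-7b, 0.20 for let-7c, 0.24 for let-7d, 0.29 for let-7f, 0.19 for let-7g and 0.20 for let-7i in ES against DP and -0.72 for let-7a, -0.48 for let-7b and -0.40 for let-7c in LS against ES. They were also -0.21 for let-7b and -0.15 for let-7c in LS against DN, 0.10 for let-7a, 0.11 for let-7f and 0.20 for let-7g in ES against DN and 0.25 for let-7d and 0.19 for let-7f in DN against DP. In the authors' deposited value table, turned values were -0.022 for let-7c in T-ALL against thymocytes, -0.018 for let-7c in LS against DP and -0.38 for let-7a and 0.029 for let-7f in LS against ES. They were also 0.18 for let-7a, -0.15 for let-7b, -0.026 for let-7c and 0.058 for let-7g in ES against DN. Without ES 1 and ES 3 together, turned values were 0.17 for let-7b in T-ALL against thymocytes, 0.040 for let-7b and 0.23 for let-7c in ES against DP and -0.20 for let-7a, -0.22 for let-7b and -0.23 for let-7c in LS against ES. They were also 0.076 for let-7a and 0.046 for let-7f in ES against DN. Among fits without 1 array, members that turned had ranges of -0.19 to 0.035 for let-7b and -0.13 to 0.14 for let-7c in T-ALL against thymocytes and -0.19 to 0.11 for let-7c in LS against DP. They were also -0.083 to 0.13 for let-7a, -0.22 to 0.063 for let-7d and -0.092 to 0.084 for let-7f in LS against ES and -0.21 to 0.25 for let-7b, -0.27 to 0.28 for let-7c and -0.11 to 0.0034 for let-7g in ES against DN.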
